A study of Arabidopsis thaliana with 2 samples.

Results

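The 3 genes PORA (AT5G54190), PORB (AT4G27440) and PORC (AT1G03630) make up the protochlorophyllide oxidoreductase (POR) family of Arabidopsis thaliana, out of 27444 nuclear protein-coding genes. They were followed in 2 lists of peaks from chromatin immunoprecipitation sequencing (ChIP-seq) of CCA1, the dawn-phased MYB transcription factor of the circadian clock. The members were chosen by gene family and by what the peak lists show near them. Every peak overlapping one of the 3 genes, extended by 2000 bp on both sides, was taken with the rank of its score in its own list. Those positions and ranks are therefore given as a description and no test was made on them.

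Both libraries came from whole Col-0 seedlings of 14 days that are cca1 lhy double mutants and carry CCA1-FLAG driven by the CCA1 promoter. Plants grew at 22 °C on 2% sucrose in 12 h of light and 12 h of darkness, and they were fixed 1 h after lights on. The tagged protein was recovered with an antibody against FLAG. The groups were 1 library read on an IonPGM and 1 library read on an Illumina GAII, each with its supplier's library kit. With 1 library per sequencer no value below has a replicate error. All plants carry the same transgene in the same double mutant, and no untagged plant or input library was analysed here. The lists hold no expression values, so the labelled tissue could not be checked against its markers. Depth is unknown, and a gene without a listed peak cannot be called unbound. The IonPGM list held 2901 peaks with scores of 4.68 to 525.37, and the Illumina list held 2954 peaks with scores of 4.95 to 407.14. The score is the authors' own value for each peak, its scale is not stated, and it was used here only to order peaks within a list.

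POR enzymes reduce protochlorophyllide to chlorophyllide, the step of chlorophyll synthesis that needs light in flowering plants. PORA is the form of dark-grown seedlings and declines once they reach light. PORB is made both in the dark and in the light, and PORC is a form of light-grown, green tissue.

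The family split into 1 gene with a high-ranking CCA1 peak within 2000 bp and 2 genes with none within that distance. PORB had 1 IonPGM peak and 1 Illumina peak in its window. PORA and PORC had 0 peaks of either list in theirs. Among all nuclear protein-coding genes, 16.1% had an IonPGM peak within 2000 bp, 17.0% had an Illumina peak, 8.89% had a pair of overlapping peaks from both lists, and 76.8% had no peak of either list. Nothing is read from the family's count against these shares, because the same peaks chose the members.

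At PORB the IonPGM peak lay at chr4:13725285-13725715 (TAIR10, 431 bp) with a score of 132.29. This was rank 30 of 2901, at percentile 99.0, where the percentile is the share of peaks in the list that score no higher. The Illumina peak lay at chr4:13725280-13725663 (384 bp) with a score of 102.59, which was rank 16 of 2954 and percentile 99.5. The site thus stood near the top of both lists. In width it was less extreme, at percentile 88.2 of the IonPGM list and 84.1 of the Illumina list.

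The peaks sat over the gap between PORB and its neighbour AT4G27435. That gap is 186 bp long, and both peaks covered it from end to end. Of the IonPGM peak, 43.2% lay in the gap, 39.4% (170 bp) in PORB and 17.4% (75 bp) in AT4G27435. Of the Illumina peak, 48.4% lay in the gap, 30.7% (118 bp) in PORB and 20.8% (80 bp) in AT4G27435. Each peak thus reached further into PORB than into AT4G27435, and each covered only the outermost part of PORB, 8.97% of the gene in the IonPGM list and 6.23% in the Illumina list. The centre of the IonPGM peak was 46 bp outside PORB and that of the Illumina peak 74.5 bp outside it, both within the gap. The gene table used gives no strand or exons, so whether this end of PORB is its transcription start, and whether the covered bases are exon or UTR, was not determined.

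**Figure D1:**
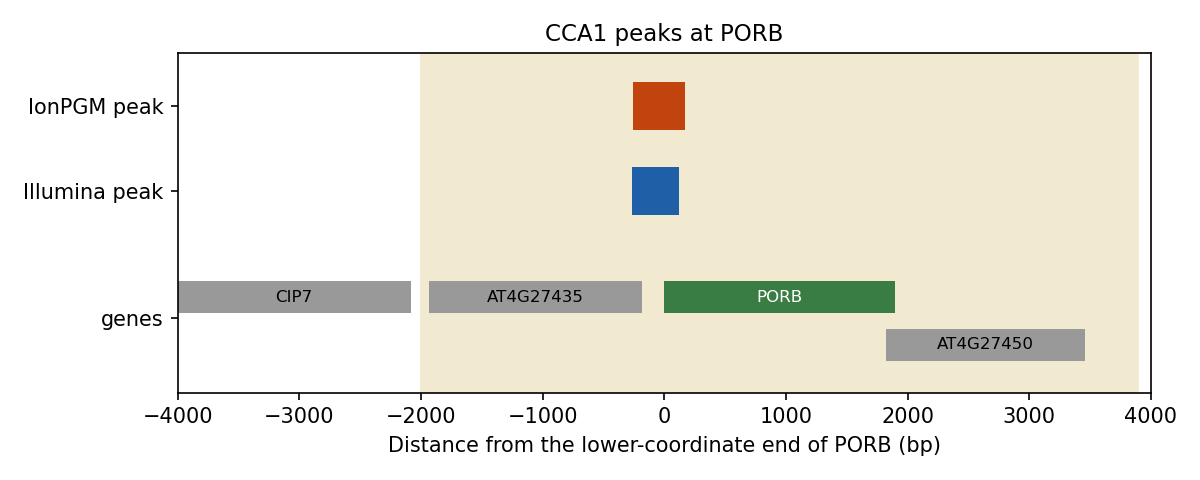
Position of the CCA1 peaks at PORB. The horizontal axis is the distance in bp from the end of PORB with the lower coordinate, bars mark the IonPGM peak, the Illumina peak and the protein-coding genes (CIP7 runs on past the left edge), and the shaded band is PORB extended by 2000 bp on both sides. Both peaks cover the 186 bp between AT4G27435 and PORB and are the only peaks in the band.

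A short gap of this kind is common in the genome. Of 27439 adjacent pairs of protein-coding genes, 29.9% overlap or are separated by 186 bp or less, and the median gap is 649 bp. Among the 1499 nuclear overlaps between an IonPGM and an Illumina peak, 47 (3.14%) bridged a gap between 2 genes as the one at PORB did. Among the 100 with the highest mean percentile, 4 did so. These shares count peak pairs, not gaps, and the share given by gap and peak lengths alone was not worked out. They therefore do not show that the position at PORB is unusual. The overlap at PORB also fell within 2000 bp of CIP7 (AT4G27430), which encodes a nuclear protein that interacts with the light-signalling regulator COP1, and of AT4G27450, which overlaps the far end of PORB. It lay 1824 bp from CIP7 and 1707 bp from AT4G27450, touching neither. The same pair of peaks thus counts for 4 genes, and the lists alone do not tell PORB from AT4G27435 as the gene it belongs to.

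The sequencers placed the site alike. The 2 peaks had 379 bp in common (chr4:13725285-13725663), which is 87.9% of the IonPGM peak and 98.7% of the Illumina peak. Over all 1532 overlapping pairs the median overlap was 234 bp, or 92.5% of the IonPGM peak and 80.2% of the Illumina peak. The IonPGM centre lay 28.5 bp above the Illumina centre in coordinate, against a median distance of 35.5 bp over all pairs. The edges inside AT4G27435 were 5 bp apart, and 7.11% of pairs had lower edges as close. The edges inside PORB were 52 bp apart, against a median of 43 bp. By the mean of its 2 percentiles the pair was ninth of 1532 (rank 9), and 6 pairs were above it in both lists.

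The 2 ranks differ in what stands above them. All 29 IonPGM peaks that scored higher than the one at PORB were nuclear, but only 11 of them overlapped an Illumina peak and 18 did not. Of the 15 Illumina peaks that scored higher, 13 were nuclear, 14 overlapped an IonPGM peak and 1 did not. Next to PORB in the IonPGM order stood the peak at FKF1, a blue-light receptor of the photoperiod pathway, with a score of 133.79 (rank 29), and a mitochondrial peak with 129.65 (rank 31). In the Illumina order the neighbours were a peak 420 bp from CBF1, a cold-acclimation transcription factor gene, with 104.34 (rank 15), and a peak at EPR1, a MYB gene related to CCA1, with 102.24 (rank 17). At the level of genes, 33 genes had an IonPGM peak scoring at least as high within 2000 bp and 30 genes (0.109% of all) had such an Illumina peak, PORB and its 3 neighbours included. Genes with any peak had a median best percentile of 50.5 in the IonPGM list and 49.8 in the Illumina list.

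The genes most like PORB in their percentiles, by Euclidean distance over the 2 libraries, were first the 3 neighbours that share its peaks (AT4G27435, AT4G27450 and CIP7, at a distance of 0). They were followed by the pseudo-response regulator gene PRR5, a clock repressor, whose pair stood at percentiles 98.9 (IonPGM) and 99.6 (Illumina), at 0.124 points from PORB. The fifth was AT5G60680, at 98.8 (IonPGM) and 99.4 (Illumina) and 0.262 points away. The pairs counted for these 2 genes lay outside them, 1173 bp from PRR5 and 1346 bp from AT5G60680. The next genes were chosen after the values were seen. First of them was FKF1 (0.273 points), then TPR1, a corepressor gene, and PTAC17, which share 1 pair (0.307 points). After them came AT2G21680 and GRP7, a clock-controlled RNA-binding protein gene, which share another (0.326 points). As at PORB, the pairs touched the gene at FKF1, TPR1, PTAC17 and GRP7. The pair counted for AT2G21680 lay 803 bp from it.

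At PORA, the nearest peaks of both lists lay well outside the window. The nearest Illumina peak was 32640 bp away (chr5:21958005-21958224, percentile 13.9) and overlapped MAMI. The nearest IonPGM peak was 45643 bp away (chr5:22038457-22039985, percentile 92.0). It overlapped LHCB3, a light-harvesting protein gene, and ATM2, a myosin gene, and an Illumina peak at percentile 30.6 overlapped it. Distance to the nearest peak placed PORA above most genes: 86.2% of genes were as near to an IonPGM peak or nearer, and 79.5% to an Illumina peak. Over all genes the median distance was 12505 bp to an IonPGM peak and 11876 bp to an Illumina peak.

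At PORC, the 2 lists differed in the nearest peak. The IonPGM list had one 8189 bp away (chr1:898666-899334, percentile 28.2) within PSB27, a photosystem II assembly factor gene, with no Illumina peak overlapping it. The nearest Illumina peak was 39159 bp away (chr1:868038-868364, percentile 75.5), 305 bp from NET3A, with no IonPGM peak overlapping it. Of all genes, 38.5% were as near to an IonPGM peak or nearer, and 83.8% to an Illumina peak. PORC overlaps its neighbour AT1G03620 by 121 bp. That gene and the neighbour on the other side, AT1G03650, had 0 peaks of either list within 2000 bp, as had both neighbours of PORA, PTAC15 (a plastid transcription protein gene) and AT5G54200.

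Of the 3 genes, PORB had the most peaks within 50 kb. Within that distance there were 7 IonPGM and 7 Illumina peaks, against 1 IonPGM and 2 Illumina peaks at PORA and 2 of each at PORC. The counts at PORB include the peaks in its window, which the choice of members used. No count over all genes was made for this distance. Within 10 kb the IonPGM list had 1 peak at PORB, 1 at PORC and 0 at PORA. The Illumina list had 2 at PORB and 0 at PORA and PORC. The peaks in the PORB window were the highest in each list within 50 kb of the 3 genes. Of the other shared sites around PORB, the one near AT4G27510 stood at percentiles 87.4 (IonPGM) and 86.3 (Illumina) and was 21869 bp from PORB in the IonPGM list. The one nearest to AT4G27340 stood at 68.3 (IonPGM) and 89.1 (Illumina). A shared site at RD26, a stress-responsive NAC factor gene, stood at 38.9 (IonPGM) and 50.1 (Illumina). The lowest shared site, at ENODL2, stood at 11.2 (IonPGM) and 37.0 (Illumina). A separate, unshared IonPGM peak at ENODL2 stood at 86.6. None of the other peaks lay within 2000 bp of PORB, the closest being an unshared Illumina peak at RMA3, 7413 bp away at percentile 5.21.

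**Figure D2:**
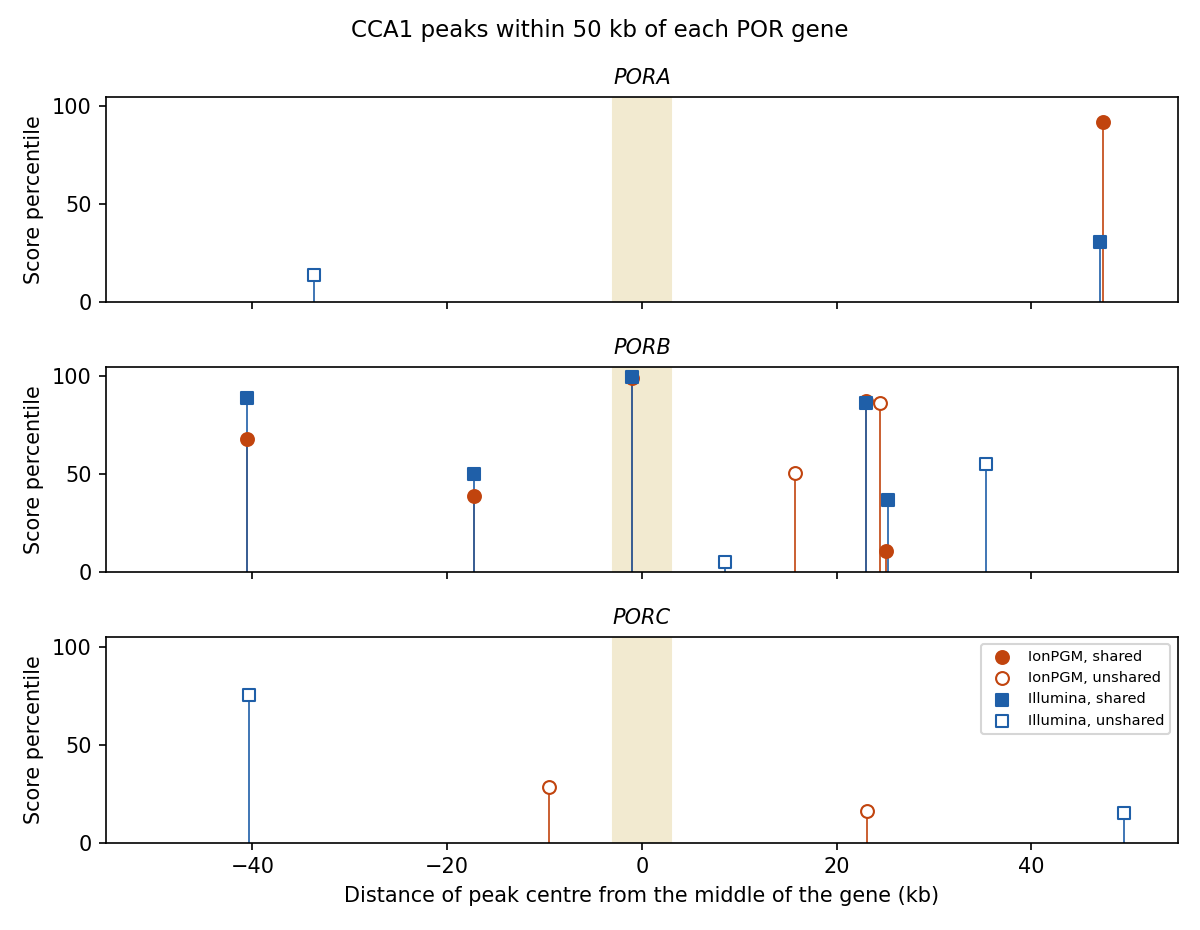
CCA1 peaks within 50 kb of PORA, PORB and PORC. The horizontal axis is the distance in kb of the peak's centre from the middle of the gene and the vertical axis is the score percentile within its list. Circles are IonPGM peaks, squares are Illumina peaks, filled symbols overlap a peak of the other list, and the shaded band marks 3 kb on both sides. PORB alone has peaks in the band, at percentiles 99.0 (IonPGM) and 99.5 (Illumina).

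Other genes of the tetrapyrrole pathway, which makes chlorophyll and heme, were set beside PORB. The list includes regulators and genes of the chlorophyll b cycle and the heme and bilin branch. Of 36 genes, 11 (30.6%) had an IonPGM peak within 2000 bp, 9 (25%) had an Illumina peak and 5 (13.9%) had an overlapping pair. Among all genes the shares were 16.1% (IonPGM), 17.0% (Illumina) and 8.89% (pair). The list was chosen with earlier results of these data known. Nothing is read from these shares, and no test was made. The median best percentile of those with a peak was 53.8 in the IonPGM list and 63.2 in the Illumina list, against 50.5 (IonPGM) and 49.8 (Illumina) over all genes with a peak. No pair in the list had a mean percentile as high as that of PORB (99.2). The ranks at PORB were known when it was chosen, so its place above the list is description only. Of the 36 genes, 22 had no peak of either list.

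Among the genes of the opening steps, which make 5-aminolevulinic acid, and their regulators, 1 of 7 had a peak. This was HEMA1, glutamyl-tRNA reductase and the main control point of the pathway, with a pair across one end of the gene (chr1:21626132-21626468) at percentiles 80.8 (IonPGM) and 90.6 (Illumina). Of the 5 pairs in the list it alone lay across the end of its gene, as the pair at PORB did. In the steps that build the porphyrin ring, 5 of 10 genes had an IonPGM peak and 2 had an Illumina peak. The only overlapping pair there was 233 bp outside HEMF2, a coproporphyrinogen oxidase gene, at 77.3 (IonPGM) and 75.3 (Illumina), and its centre was nearest to another gene, AT4G03210. The Illumina peak counted for HEMF1, at percentile 75.5, was the same peak that lay nearest to PORC.

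In the magnesium branch that leads to the substrate of POR, 2 of 9 genes had an overlapping pair. At GUN4, a regulator of magnesium chelatase, it lay within the gene and also overlapped AT3G59410, at 90.4 (IonPGM) and 66.2 (Illumina). At CHL27, a subunit of the cyclase that forms the fifth ring, it lay within the gene at 26.2 (IonPGM) and 53.3 (Illumina). The CHL27 window held 3 IonPGM peaks, the highest at 59.4. CHLH, the large subunit of magnesium chelatase, had an IonPGM peak alone, at 12.4. After POR and in the chlorophyll b cycle, 2 of 6 genes had an IonPGM peak, 4 had an Illumina peak and 1 had a pair. This was NYC1, a chlorophyll b reductase, where it lay within the gene at 76.4 (IonPGM) and 37.7 (Illumina). CAO, which makes chlorophyll b, had peaks of both lists that did not overlap, at 24.0 (IonPGM) and 10.8 (Illumina). CHLP and CHLG had an Illumina peak alone, at 63.2 (CHLP) and 28.6 (CHLG). The 4 genes of the heme and bilin branch had 0 peaks.

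**Figure D3:**
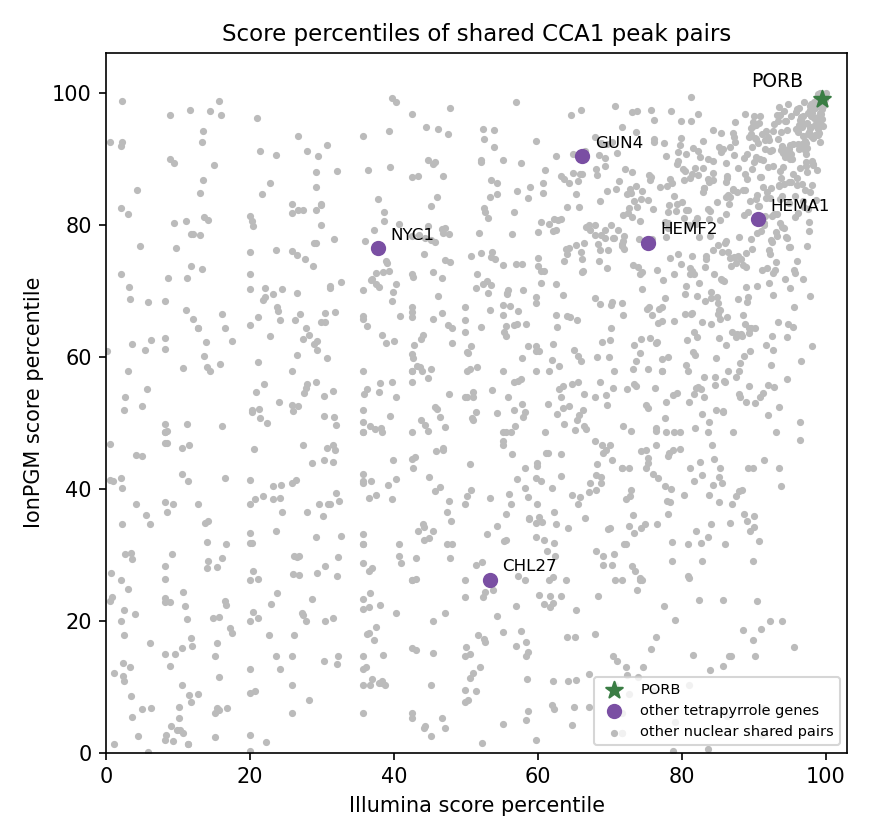
Score percentiles of the nuclear pairs of overlapping peaks. Each point is 1 pair, with its Illumina percentile on the horizontal and its IonPGM percentile on the vertical axis; the star is PORB, the large points are the 5 other tetrapyrrole genes with a pair within 2000 bp, and the small points are the rest of the 1499 pairs. PORB lies in the upper right corner (99.0 IonPGM, 99.5 Illumina), and HEMA1 stands at 80.8 (IonPGM) and 90.6 (Illumina).

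**Figure D4:**
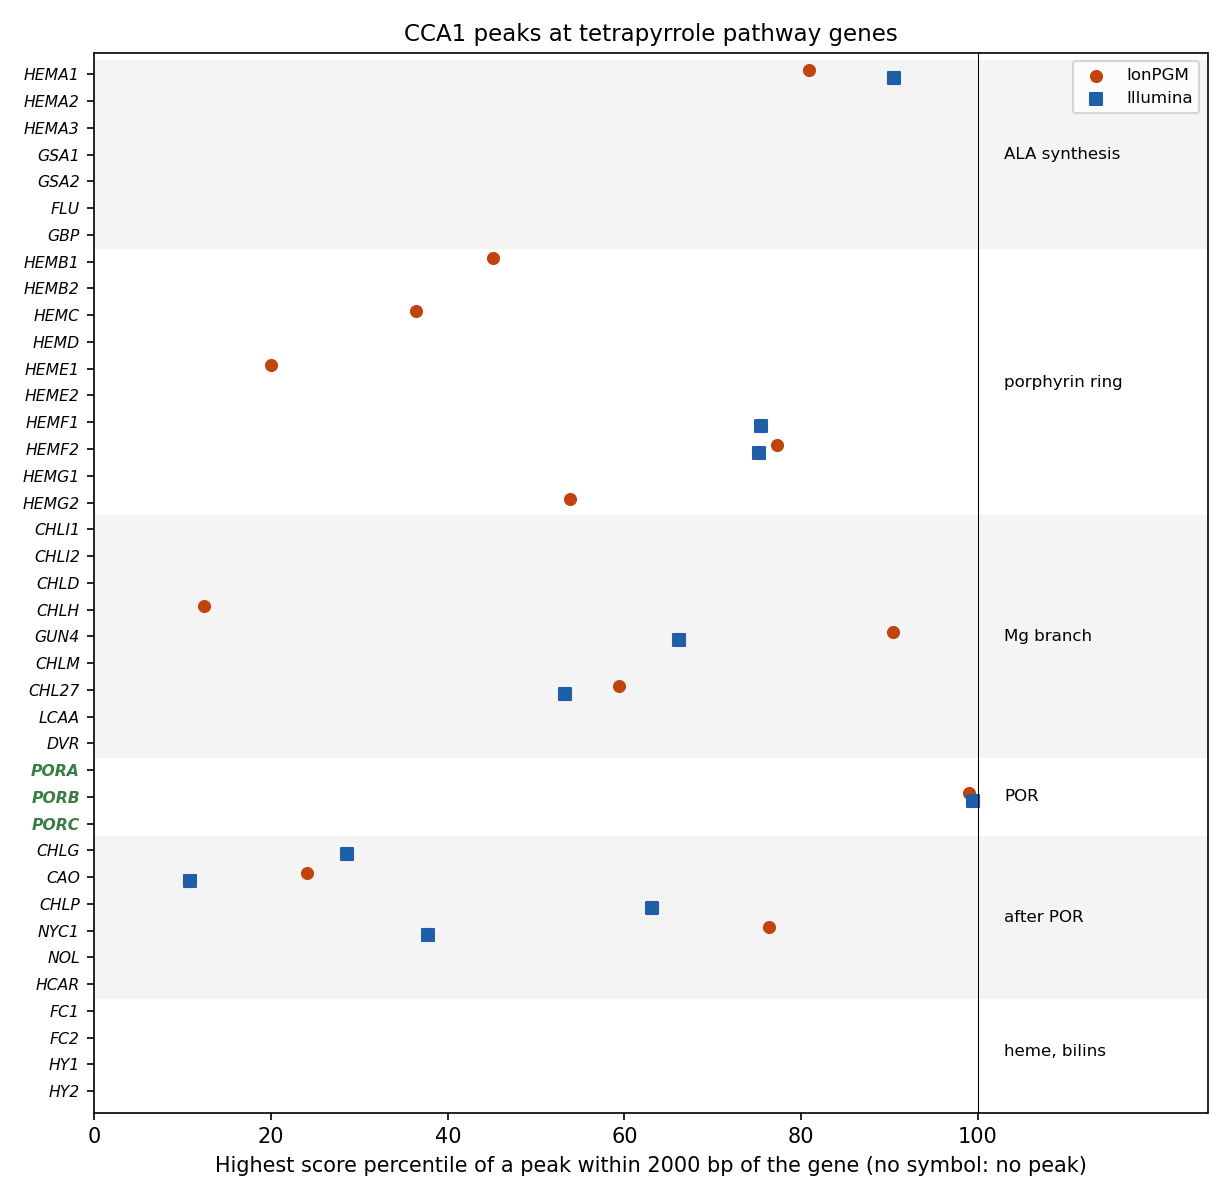
Highest score percentile of a CCA1 peak within 2000 bp of each tetrapyrrole gene, in order of the pathway from top to bottom. Circles are IonPGM peaks, squares are Illumina peaks, a row without a symbol had no peak, and ALA stands for 5-aminolevulinic acid. PORB, whose ranks were known when it was chosen, has the highest value in both lists. No symbol is shown for 22 of the 36 other genes, PORA and PORC.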

How the data were processed

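Per the submitters' processing notes, the authors worked on TAIR10 and used Bowtie 0.12.7, SAMtools 0.1.18 and MACS2. The sources used here do not say how the threshold was set or whether a control or filter was applied. The authors deposited 1 peak list per library, with a position and 1 score per peak. Both lists were read as 0-based intervals and are printed 1-based.

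Gene names and positions came from RefSeq TAIR10.1, and no gene coordinate from it is printed. As a check of the match to the files, 35.6% of the centres of nuclear overlaps lay outside genes within 500 bp of one, against 14.4% and 13.6% after moves of -2000 and 2000 bp. Peaks of the lists were paired when they overlapped by at least 1 bp. A gene was counted when a peak, or the stretch common to a pair, overlapped it extended by 2000 bp. All 36 genes of the tetrapyrrole list were found by locus identifier, 32 of them also by the symbol used here.

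The members, the tetrapyrrole list and the rules were chosen with earlier results of these data known. The genes named are the members, their neighbours, genes at the nearest or adjacent-ranked peaks, the 5 genes nearest to PORB in both percentiles, and the list genes with a pair; other list genes and peaks of the surroundings were named after their values were seen. The planned motif and protein descriptions were not made, since no sequence was used here. No test was run, because each sequencer has 1 library. The overlap code was checked on simulated intervals. Alternatives were other windows, score thresholds and pairing rules. Python 3.11.15, NumPy 2.4.6, pandas 2.3.3 and Matplotlib 3.10.9 were used.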

Additional observations from a re-analysis of the deposited data

How the results depend on the processing

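The POR result was the same in every alternative tried: 1 of 3 genes had a peak with windows of 500, 1000 and 3000 bp, with peaks above percentile 50 or 90, with peak centres in the window, and with pairs defined by 50% overlap or by centres within 100 bp. None of these settings could have changed it. The PORB peaks overlap the gene at percentiles 99.0 (IonPGM) and 99.5 (Illumina), with centres 28.5 bp apart. The nearest peak to PORA or PORC in either list lay 8189 bp away, from PORC. The unchanged count therefore adds no support. Ranked over nuclear peaks only, PORB stood at percentiles 98.98 (IonPGM) and 99.55 (Illumina).

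The counts behind the background moved by construction where fewer bases or fewer peaks were counted. Of 27444 genes, 2697 had an IonPGM peak, 2800 an Illumina peak and 1418 a pair with windows of 500 bp. With peaks above percentile 50 these counts were 2231, 2318 and 1186, and above percentile 90 they were 418, 469 and 200. Of the 36 other tetrapyrrole genes, 6 had an IonPGM peak, 6 an Illumina peak and 3 a pair above percentile 50. Above percentile 90, 1 had an IonPGM peak, 1 an Illumina peak and 0 a pair, and no test was made on these counts. With centres within 100 bp, 3 had a pair, against 2111 of the 27444 genes. With pairs counted only at the gene they touch or lie nearest to, chosen after seeing the data, 4 did. No count over all genes was made under that rule, so the 4 cannot be set against a background. The other alternatives gave counts within 1.5 times of those reported.

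No paired analysis was possible because each sequencer has 1 library and no result comes from a test. Depth is unknown, so PORA and PORC have no detection limit.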
